A study of Mus musculus with 32 samples.

Results

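The genes followed here are the 4 MyoD-family genes of the mouse: Myod1, Myf5, Myog (myogenin) and Myf6 (also called Mrf4). They were taken by name, as every probe set annotated to 1 of them, and each had 1 probe set, so the set is 4 of the 8251 genes and 4 of the 12422 probe sets on the array. The proteins are transcription factors of the basic helix-loop-helix class. They pair with the widely expressed E proteins, bind a short DNA word called the E-box, and switch on muscle genes together with the Mef2 factors. Myf5 and MyoD mark and maintain the dividing muscle precursor, the myoblast, whereas myogenin appears as myoblasts leave the cell cycle and fuse, and Mrf4 is known mainly from later, maturing fibres. Id proteins hold E proteins in inactive pairs, and deacetylases are recruited to MyoD and Mef2 at muscle genes.

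RNA came from C2C12 cells, an established line of mouse myoblasts that forms myotubes when growth medium is replaced by differentiation medium. In the TSA arm, untreated control cells and cells given trichostatin A (TSA), a drug that blocks histone deacetylases of the zinc-dependent classes, were profiled at 0 h, while still in growth medium, and 4, 12, 24 and 48 h into differentiation, with 2 arrays in each of 10 groups. In the Sir2 arm, cells with the empty pHan vector and cells with pHan carrying Sir2, the NAD-dependent deacetylase known in the mouse as Sirt1, were profiled after 12 and 36 h of differentiation, with 3 arrays in each of 4 groups. The labels give no dose of TSA, no time of its addition or removal, and neither the species of the Sir2 sequence nor whether cells were pooled or 1 clone. They do not say that arrays of a group came from separate cultures, so each p-value rests on the spread between these arrays alone, which may be technical. The 2 arms were scaled apart, and no level is compared between them or between genes.

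Arrays were even in scale within an arm. The trimmed mean intensity was 800.0 on arrays of the TSA arm and 149.97 on those of the Sir2 arm, and 21.0% to 24.2% of the values of a TSA-arm array lay at or below 0, against none in the Sir2 arm. For Gapdh the ratio of 3' over 5' probe set signal, which tracks RNA integrity, was 0.815 ± 0.0438 (SD, n = 10) with TSA and 0.866 ± 0.0415 (n = 10) in control (exact permutation within times, two-sided, p = 0.00823, Benjamini-Hochberg adjusted over 2 tests 0.0165). It was 0.780 ± 0.0579 with Sir2 and 0.834 ± 0.0442 with vector (n = 6 each, exact permutation p = 0.07); its part in the results was not tested. All 7 of 7 myoblast markers, 1 of which is Myod1, were above the filter in both arms. None of the 5 leukocyte markers on the array was, and their summed intensity was 8.64 to 245 in control and 0 to 406 with TSA. Of the endothelial markers 1 of 5 passed in the TSA arm and none in the other, and of the adipocyte markers 1 of 4 passed in each arm. Of the bone and cartilage markers 3 of 4 passed in the TSA arm and 1 of 4 in the other, and of the neural markers 3 of 5 passed in each. By its setting the filter kept 7453 of the 12422 probe sets in each arm, so 3 of 5 is near the share over all probe sets. Of the 3 neural markers tested 1 was higher with TSA at 0 h (Nefl, 1.46 ± 0.35, adjusted p = 0.0105), at 48 h (Tubb3, 1.32 ± 0.16, 0.000141) and over the mean of times (Nefl). Nefl was also higher with Sir2 at 12 h (1.47 ± 0.14, adjusted p = 6.77e-05), at 36 h (0.76 ± 0.14, 0.00467) and over both times. Of the myoblast markers 4 of 7 were higher and 1 lower with TSA over the mean of times, and with Sir2 4 were lower and 1 higher at 12 h and 2 higher at 36 h. The part of all these markers in the results was not tested. Sirt1 stood at 37.5 to 48.7 in the 3 arrays of Sir2 cells at 12 h against 9.48 to 20.3 in vector cells, and at 35.8 to 80.5 against 19.6 to 39.4 at 36 h. It rose by 0.95 ± 0.19 on the log2 scale over both times (limma adjusted p = 0.00641), but at 36 h alone its arrays overlapped and it did not pass (adjusted p = 0.106).

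In the mouse genome (GRCm38.p6) Myod1 lies at chr7:46376474-46379092, Myog at chr1:134290004-134292548, and Myf5 and Myf6 are neighbours at chr10:107482908-107486927 and chr10:107492848-107494723. Promoter windows were at hand in RefSeq (GRCm38.p6) for 2 of the 4 genes, Myog and Myf5. The Myog window is shown because Myog had the largest log2 change of the tested members from 0 to 48 h. It is the 250 bases upstream of the start site, chr1:134289754-134290003 on the plus strand, with the matches to the searched motifs in capitals.
Myog promoter: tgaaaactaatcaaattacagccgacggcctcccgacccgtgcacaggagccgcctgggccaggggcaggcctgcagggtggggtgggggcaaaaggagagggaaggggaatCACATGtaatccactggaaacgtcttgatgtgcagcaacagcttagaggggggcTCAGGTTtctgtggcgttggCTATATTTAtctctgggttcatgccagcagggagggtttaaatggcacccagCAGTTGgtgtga
The first and last capital words are E-boxes (CANNTG), 138 to 133 and 12 to 7 bases before the start. Between them lie a MEF3 word (TCAGGTT, a site known from muscle gene promoters) at 84 to 78 bases and a match to the MEF2 core CTANNNNTA at 64 to 56 bases. None of these overlaps another.
On both strands of 32851 such windows, the share with at least 1 match was 66.2% for the E-box, 3.49% for MEF3 and 19.0% for the MEF2 core, and 31.8% held 2 or more E-boxes. The full MEF2 consensus, the TATA box (TATAAA) and the CArG box of serum response factor were also searched; 2.92%, 12.4% and 1.47% of the windows hold them, and neither member's window does.
Of the 250 bases upstream of the Myf5 start listed there, which lie within the annotated span of the gene, the MEF2 core was matched on both strands in 1 overlapping word, and no E-box or MEF3 word was found. The 30 bases around it, chr10:107486297-107486326 on the minus strand, are given to set beside the Myog window, with the word in capitals.
Myf5 stretch: taagtgatccCTAGGTTTAGtttatccaga
A match describes letters only and says nothing of binding in these cells.

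Values below are array intensities in arbitrary units, in replicate order. Before log2 a constant was added, 137.7 for arrays of the TSA arm and 8.82 for those of the Sir2 arm, so changes of dim genes are compressed. They stand with their standard error, and a probe set passed at a Benjamini-Hochberg adjusted p under 0.05 in limma, adjusted over the 7453 probe sets tested in each arm. Of the 4 genes 3 were tested in limma. Myf6 did not pass the filter on low values, with a mean of 84.4 against a limit of 144.9 (TSA arm) and of 21.5 against 31.1 (Sir2 arm). These means are over all arrays of an arm, so a gene low at 0 h can be tested through its other groups. Myog was such a gene, with a mean of 71.2 in control cells at 0 h.

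During differentiation without TSA, Myog and Myod1 rose and Myf5 fell between 0 and 48 h. From 0 h to 48 h all 3 tested genes passed, 2 higher and 1 lower; of all probe sets tested 35.3% passed, 16.0% higher and 19.3% lower. Myog read -40.8 and 183 at 0 h, 203 and 849 at 4 h, 2309 and 2107 at 12 h, 7210.0 and 8627 at 24 h, and 18686 and 21516 at 48 h. Each time from 4 h on lay above the time before it with no overlap of arrays. Because an array of 0 h was below 0 no fold is given, and its log2 change to 48 h was 6.59 ± 0.44 (adjusted p = 1.94e-07). Myod1 read 1808 and 1934 at 0 h, 1447 and 1476 at 4 h, 1843 and 1913 at 12 h, 3051 and 3023 at 24 h, and 5611 and 4563 at 48 h. Its arrays of 0 and 12 h overlapped, those of 4 h lay below both, and those of 24 and 48 h lay above all earlier ones. The mean at 48 h was 2.72 times that at 0 h (log2 change 1.37 ± 0.11, adjusted p = 7.67e-07). Myf5 read 1268 and 1763 at 0 h, 1371 and 1398 at 4 h, 1030.0 and 703 at 12 h, 1753 and 2060.1 at 24 h, and 931 and 1005 at 48 h. Both arrays of 24 h stood above those of 12 and 48 h. From 0 to 48 h Myf5 fell by 0.56 ± 0.18 on the log2 scale (adjusted p = 0.0244). This call was lost without control 0 h replicate 2 (adjusted p = 0.227), control 48 h replicate 1 (0.102) or control 48 h replicate 2 (0.0546).

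The steps between neighbouring times placed these changes. No member passed from 0 to 4 h in control cells (limma; Myod1 and Myog were under 0.05 before adjustment, and 2.05% of all probe sets passed). From 4 to 12 h Myog alone of the 3 passed, with a log2 change of 2.01 ± 0.44 (adjusted p = 0.0331; 2.91% of all). That call was lost without control 4 h replicate 1 or either control 12 h array (adjusted p = 0.0986 to 0.201), and under 4 of the other settings tried. From 12 to 24 h all 3 rose, Myog by 1.78 ± 0.44 (adjusted p = 0.0169), Myf5 by 1.04 ± 0.18 (0.0019) and Myod1 by 0.66 ± 0.11 (0.00148), against 14.1% of all probe sets called. The Myog step was lost without either control 12 h array or control 24 h replicate 3 (adjusted p = 0.0585 to 0.112), and with the halved pseudocount (0.0530). In a fit of only the arrays compared the steps of Myf5 (adjusted p = 0.124) and Myod1 (0.116) were lost. From 24 to 48 h Myod1 rose by 0.71 ± 0.11 (adjusted p = 0.00056) and Myf5 fell by 0.88 ± 0.18 (0.00384), both lost in a fit of only the arrays compared (0.148 and 0.106). Myog, at 1.33 ± 0.44, had an adjusted p of 0.0507, and 18.9% of all probe sets passed.

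TSA-treated cells in growth medium held about double the Myf5 level of control cells, and were below control at 24 h without passing the test. Myf5, the earliest of the family in embryonic muscle, read 3112 and 3004 with TSA at 0 h and 2974 and 2511 at 4 h. At both times all TSA arrays lay above all control arrays, and the means were 2.02 and 1.98 times those of control. The log2 difference was 0.97 ± 0.18 at 0 h (adjusted p = 0.00188) and 0.92 ± 0.18 at 4 h (adjusted p = 0.00456). At 12 h TSA arrays read 1472 and 1217, above the control arrays, with a log2 difference of 0.58 ± 0.18 that did not pass (adjusted p = 0.103). It passed without control 12 h replicate 1 (adjusted p = 0.0362). At 24 h the order was turned, 1252 and 1294 with TSA under 1753 and 2060.1 in control, a log2 difference of -0.53 ± 0.18 (adjusted p = 0.109). At 48 h TSA arrays read 1104 and 1125, and the log2 difference was 0.18 ± 0.18 (adjusted p = 0.518, 95% interval -0.20 to 0.56).

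Between 12 and 24 h the change of Myf5 differed between the treatments, by -1.11 ± 0.25 (adjusted p = 0.0485; 1.53% of all probe sets passed): control arrays rose and TSA arrays did not pass (-0.07 ± 0.18, adjusted p = 0.899). This call was lost without any 1 of control 12 h replicate 2, control 24 h replicates 2 and 3, TSA 12 h replicates 1 and 2, and TSA 24 h replicates 2 and 3 (adjusted p = 0.0717 to 0.186), and under 5 of the other settings tried. In TSA cells Myf5 fell by 0.96 ± 0.18 from 4 to 12 h (adjusted p = 0.00639), a call lost without TSA 4 h replicate 1 (0.0542) or TSA 12 h replicate 2 (0.0703), or with only the arrays compared in the fit (0.128). It fell by 1.35 ± 0.18 from 0 to 48 h (adjusted p = 9.46e-05).

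Myod1 was higher with TSA in the first hours of differentiation and lower at 48 h. MyoD is the factor whose gain alone can turn many other cell types into muscle. With TSA the arrays read 2173 and 2168 at 0 h, 2644 and 2669 at 4 h, 2767 and 2676 at 12 h, 3494 and 3577 at 24 h, and 3875 and 4087 at 48 h. TSA arrays lay above control arrays at 0, 4, 12 and 24 h and below them at 48 h, without overlap at any time. The largest ratio of means was 1.82 at 4 h, where the log2 difference was 0.81 ± 0.11 (adjusted p = 0.000383). At 12 h the ratio was 1.45 and the log2 difference 0.50 ± 0.11 (adjusted p = 0.0173), a call lost without control 12 h replicate 1, control 12 h replicate 2, TSA 12 h replicate 1 or TSA 12 h replicate 2 (0.0836 to 0.133). The differences of 0.20 ± 0.11 at 0 h (adjusted p = 0.240) and 0.21 ± 0.11 at 24 h (adjusted p = 0.332) did not pass. At 48 h the mean with TSA was 0.783 of control, and Myod1 was lower by a log2 difference of -0.34 ± 0.11 (adjusted p = 0.0433). The call at 48 h was lost without control 48 h replicate 1 (0.268), TSA 48 h replicate 1 (0.154) or TSA 48 h replicate 2 (0.0881), and under 4 of the other settings tried, among them quantile normalization (0.0651), median centring (0.0509) and a fit of only the arrays compared (0.388). From 24 to 48 h the change of Myod1 differed between treatments by -0.55 ± 0.15 (adjusted p = 0.0439; 7.86% of all passed). It was lost without control 24 h replicate 2 or 3, control 48 h replicate 1, or any 1 of TSA 24 h replicates 2 and 3 and TSA 48 h replicates 1 and 2 (0.0723 to 0.114), and under 3 of the other settings tried.

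Myog was higher with TSA in growth medium and lower at 12 h, and its arrays overlapped those of control at 48 h. With TSA it read 808 and 609 at 0 h, 772 and 457 at 4 h, 619 and 501 at 12 h, 5388 and 5350.0 at 24 h, and 18767 and 20797 at 48 h. The first 3 times overlapped one another. TSA arrays lay above control at 0 h and below at 12 and 24 h, and overlapped at 4 and 48 h. At 0 h the log2 difference was 2.0 ± 0.44 (adjusted p = 0.00616), with no fold given because control replicate 1 was below 0. The call at 0 h was lost without that array (adjusted p = 0.0830) or TSA 0 h replicate 1 (0.0561). At 12 h Myog with TSA was 0.254 of control, a log2 difference of -1.75 ± 0.44 (adjusted p = 0.0412). This call was lost without control 12 h replicate 1, control 12 h replicate 2, TSA 12 h replicate 1 or TSA 12 h replicate 2, and under 6 of the other settings tried. At 24 h the ratio was 0.678 and the log2 difference -0.54 ± 0.44 (adjusted p = 0.593). At 48 h the difference was -0.02 ± 0.44 (adjusted p = 0.984, 95% interval -0.97 to 0.92).

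In TSA cells no member passed from 0 to 4 h (limma; Myod1 was under 0.05 before adjustment; 6.0% of all passed), and of the 3 only Myf5 did from 4 to 12 h (6.27% of all). Myog rose by 2.99 ± 0.44 from 12 to 24 h (adjusted p = 0.00188; 5.15% of all), when its mean went up 9.59-fold, and by 1.85 ± 0.44 from 24 to 48 h (adjusted p = 0.0107; 16.9% of all). The second of these steps was lost without TSA 24 h replicate 2 or 3 or TSA 48 h replicate 2 (0.0531 to 0.0592). Myod1 passed in neither (adjusted p = 0.0754 and 0.348). From 0 to 48 h all 3 passed (26.4% of all), Myog up 4.56 ± 0.44 (adjusted p = 6.96e-06), 27.9-fold, and Myod1 up 0.83 ± 0.11 (adjusted p = 8.15e-05), 1.83-fold. For Myog from 4 to 12 h the change differed between treatments by -2.10 ± 0.62 without passing (adjusted p = 0.115), and it passed without control 4 h replicate 2 (0.0408).

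**Figure D1:**
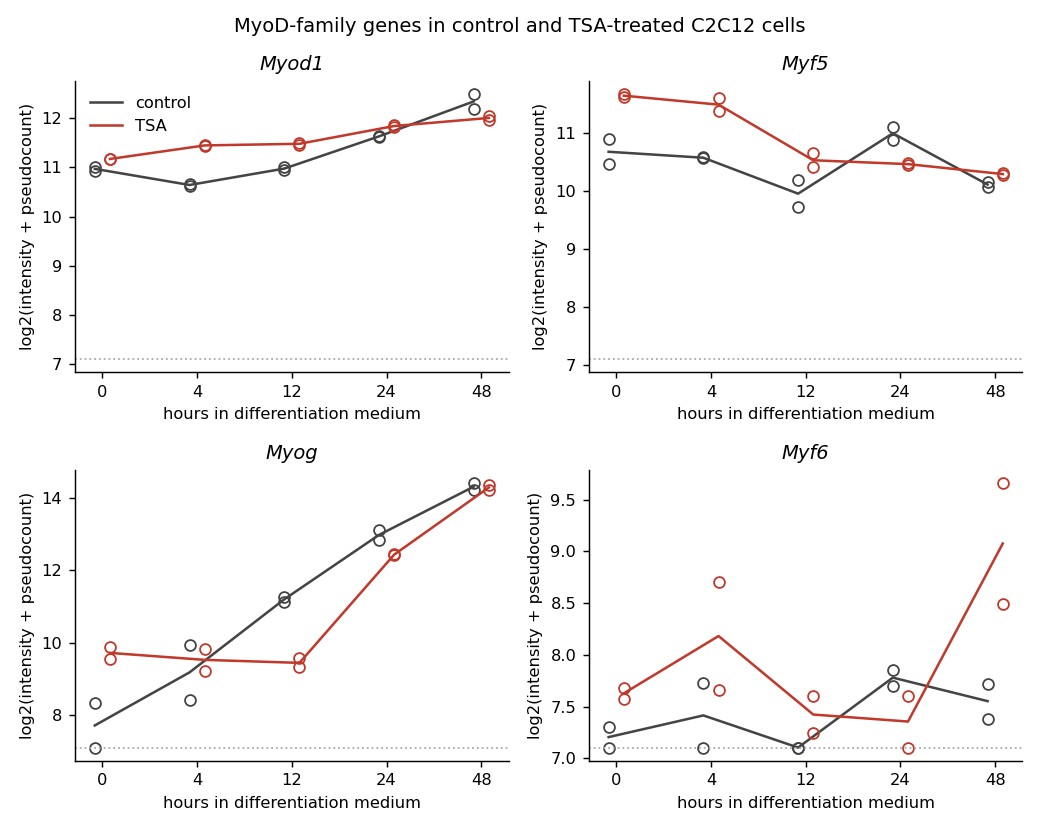
Level of each MyoD-family gene in the TSA arm as log2(intensity + 137.7), with values below 0 set to 0, against hours in differentiation medium (evenly spaced; 0 h is growth medium). Circles are arrays, 2 per group, lines join group means, black is control, red is TSA, and the dotted line marks an intensity of 0. Red Myog arrays stay level up to 12 h and meet the black ones at 48 h.

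By time, 2 of 3 tested members were higher with TSA at 0 h (Myf5 and Myog; 17.9% of all probe sets passed, 7.90% higher and 10% lower) and 2 of 3 at 4 h (Myf5 and Myod1; 11.4%, 5.61% higher and 5.74% lower). At 12 h 1 was higher and 1 lower (Myod1 and Myog; 4.08%, 2.56% higher and 1.52% lower). At 24 h none passed in limma, with Myf5 under 0.05 before adjustment (5.94%, 2.67% higher and 3.27% lower). At 48 h Myod1 was lower (19.6%, 10.5% higher and 9.10% lower). These shares also depend on replication: at each of these times fewer probe sets passed without 1 array of the groups compared, whichever array was left out. In this arm leaving out 1 array leaves 1 array in its group. A call lost that way can therefore reflect lost replication and need not point to the array left out. The test of whether the effect of TSA differed between times passed for Myf5 (adjusted p = 0.00361), Myod1 (0.00156) and Myog (0.00782), as it did for 22.2% of all probe sets. Of the differences between neighbouring times, no member passed from 0 to 4 h (1.61% of all; Myod1 and Myog were under 0.05 before adjustment in limma) or from 4 to 12 h (1.46%; Myog was).

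Averaged over the 5 times, Myf5 was higher with TSA by 0.42 ± 0.08 (adjusted p = 0.00187) and Myod1 by 0.28 ± 0.05 (adjusted p = 0.00104), against 22% of all probe sets, 10.2% higher and 11.9% lower. Myog had a mean difference of 0.01 ± 0.19 (adjusted p = 0.986, 95% interval -0.42 to 0.43), a mean of differences of both signs. Exact permutation of treatment labels within times, two-sided and adjusted over the 4 genes, gave p = 0.0265 for Myf5, 0.0273 for Myod1 and 0.0350 for Myf6, each 0.0466 after adjustment, and 0.986 for Myog. The smallest p this design allows is 0.000257. The permutation test did not use the filter, and Myf6 had arrays at or below 0 in this arm. In limma without the filter its mean difference of 0.52 ± 0.18 did not pass (adjusted p = 0.0866).

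**Figure D2:**
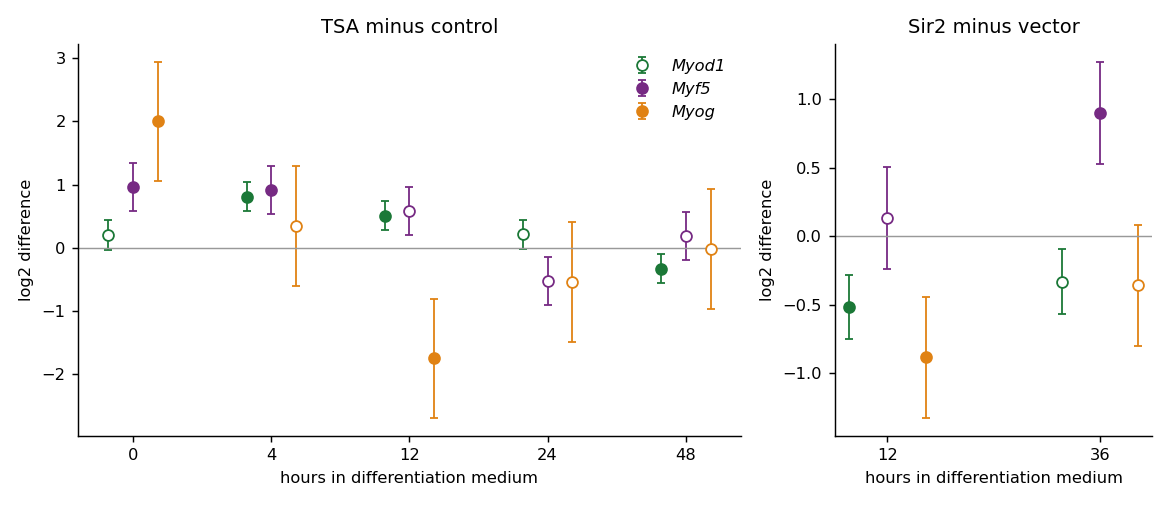
Log2 difference of Myod1, Myf5 and Myog between treatments at each time, TSA minus control on the left and Sir2 minus vector on the right, with 95% intervals from limma. Filled points passed at an adjusted p under 0.05. Myod1 and Myf5 lie above 0 up to 12 h of TSA, and Myog goes from 2.0 at 0 h to -1.75 at 12 h.

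Myf6 stayed dim in nearly every group. Control arrays read -53.2 and 20.7 at 0 h, -3.69 and 74.1 at 4 h, -35.9 and -38.3 at 12 h, 70.9 and 94.2 at 24 h, and 29.4 and 73.6 at 48 h. With TSA they read 53.2 and 67.6 at 0 h, 65.0 and 279 at 4 h, 14.4 and 56.3 at 12 h, 57.4 and -31.0 at 24 h, and 672.5 and 222 at 48 h. The 2 TSA arrays of 48 h lay above all control arrays, though they stood far apart from each other, and no fold is given because control arrays were dim or below 0. A fit without the filter put Myf6 at a log2 difference of 1.52 ± 0.40 at 48 h (adjusted p = 0.0291). Since it was let in only by dropping the filter, this is an alternative and no call. The same holds for its permutation p over the mean of times.

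Across the 10 groups of the TSA arm the order of Myod1 ran from control 4 h (mean 1462) to control 48 h (5087), and in 1 of 9 pairs of neighbours in that order the arrays overlapped, control 0 h and 12 h. For Myog it ran from control 0 h (71.2) through control 4 h and the TSA groups of 12, 4 and 0 h, each overlapping the next, to TSA and control 48 h (19782 and 20101), which also overlapped. For Myf5 the TSA groups of 4 and 0 h (2742 and 3058) stood apart at the top, control 12 h (867) was lowest, and 5 of 9 neighbouring pairs overlapped. For Myf6 8 of 9 did. Such overlaps were not counted over all probe sets. Groups of 2 arrays can stand apart without a difference that passes, as TSA and control did for Myf5 at 24 h. These counts are therefore descriptive only.

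Sir2 cells held less Myod1 and Myog at 12 h and more Myf5 at 36 h than vector cells. At 12 h 2 of 3 tested members passed, both lower; of all probe sets 5.55% passed, 2.78% higher and 2.78% lower, with 207 each way, and median centring turned this to 124 higher and 215 lower. At 36 h 1 of 3 passed, higher; of all 9.26% passed, 6.04% higher and 3.22% lower, 450 against 240, or 478 against 154 with median centring. Over both times all 3 passed, 1 higher and 2 lower (12.6% of all, 7.49% higher and 5.09% lower).

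Myod1 read 1261.5, 1099.5 and 1127 in vector cells at 12 h and 765, 833 and 830.0 in Sir2 cells. At 36 h it read 1716, 1514 and 1430 (vector) and 1152, 1243 and 1299.6 (Sir2). Sir2 arrays lay below vector arrays at both times, with means of 0.696 and 0.793 of vector. The log2 difference was -0.52 ± 0.11 at 12 h (adjusted p = 0.0164) and -0.33 ± 0.11 at 36 h (adjusted p = 0.0836). The first call was lost without vector 12 h replicate 1 (0.0652) or Sir2 12 h replicate 1 (0.0732). Over both times Myod1 was lower by a log2 difference of -0.42 ± 0.08 (adjusted p = 0.00336).

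Myog read 1558, 1492 and 2055 in vector cells and 768, 745 and 1309.9 in Sir2 cells at 12 h, with 1 Sir2 array, replicate 3, well above the other 2. At 36 h it read 3644, 3620 and 3312 (vector) and 3077, 2401 and 2802.5 (Sir2). All Sir2 arrays lay below all vector arrays at each time, with means of 0.553 and 0.783 of vector. The log2 difference was -0.88 ± 0.20 at 12 h (adjusted p = 0.0260) and -0.36 ± 0.20 at 36 h (adjusted p = 0.317). The call at 12 h was lost without vector replicate 1 (0.0522), vector replicate 3 (0.115), Sir2 replicate 1 (0.101) or Sir2 replicate 2 (0.106). Over both times it was -0.62 ± 0.14 (adjusted p = 0.0148).

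Myf5 read 143, 214 and 132 in vector cells and 165, 168 and 196 in Sir2 cells at 12 h, overlapping. At 36 h it read 88.8, 92.3 and 95.5 in vector cells and 159, 217 and 168 in Sir2 cells, and the Sir2 arrays lay above, with a mean 1.97 times that of vector. The log2 difference was 0.13 ± 0.17 at 12 h (adjusted p = 0.771) and 0.90 ± 0.17 at 36 h (adjusted p = 0.00584). Over both times it was 0.52 ± 0.12 (adjusted p = 0.0153). The difference between the times' effects, 0.77 ± 0.24 for Myf5, did not pass for any member in limma (adjusted p = 0.139 to 0.630; Myf5 was under 0.05 before adjustment; 1.76% of all passed).

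In vector cells all 3 tested members moved from 12 to 36 h, Myog up 2.07-fold (log2 change 1.06 ± 0.20, adjusted p = 0.00184), Myod1 up 1.34-fold (0.41 ± 0.11, 0.0123) and Myf5 down to 0.566 of its level (-0.74 ± 0.17, 0.00619). Of all probe sets 32.1% passed, 12.4% higher and 19.7% lower. The Myod1 call was lost without vector 36 h replicate 1 (0.0551). In Sir2 cells Myog rose 2.93-fold (log2 change 1.59 ± 0.20, adjusted p = 9.82e-05) and Myod1 1.52-fold (0.60 ± 0.11, 0.00133), and Myf5 had a change of 0.03 ± 0.17 (adjusted p = 0.912); 28.5% of all passed.

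Myf6 read 11.5, 3.22 and 17.3 (vector) and 15.6, 7.35 and 5.98 (Sir2) at 12 h, and 45.7, 28.2 and 49.2 (vector) and 24.1, 16.4 and 32.9 (Sir2) at 36 h. The treatments overlapped at both times, and the 36 h arrays lay above the 12 h arrays within each treatment. Over the 12 arrays exact permutation within times, two-sided and adjusted over the 4 genes, gave p = 0.005 for Myod1 and for Myog, the smallest this design allows (0.01 after adjustment), 0.03 for Myf5 (0.04) and 0.235 for Myf6.

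**Figure D3:**
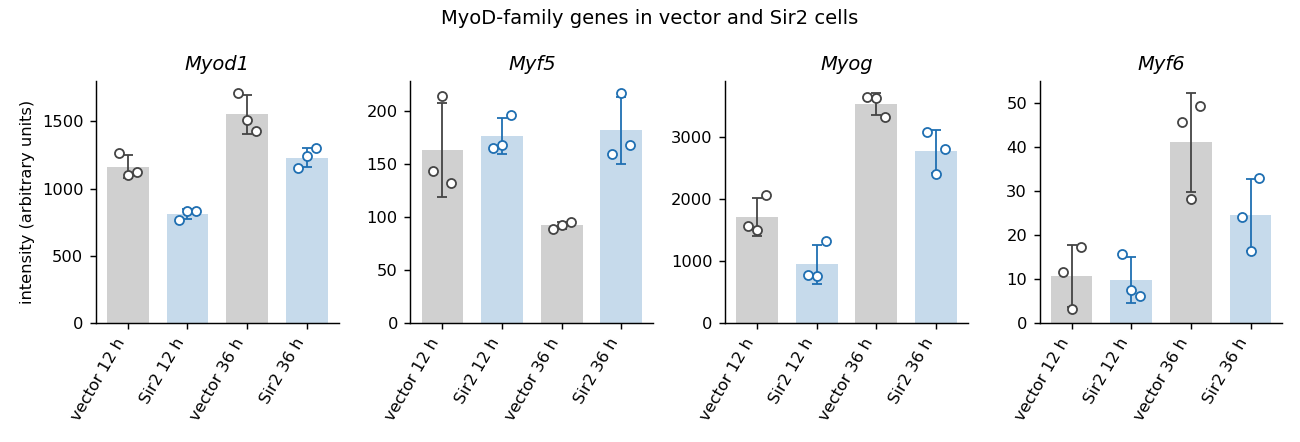
Intensity of each MyoD-family gene in the Sir2 arm in vector (grey) and Sir2 (blue) cells at 12 and 36 h of differentiation. Bars are means, error bars SD, circles the 3 arrays of a group, and each panel has its own axis from 0. Sir2 arrays of Myod1 and Myog lie below vector arrays at both times, and those of Myf5 above them at 36 h.

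The partners and inhibitors of the family, and its target genes below, were followed through lists chosen by known function, with 1 probe set per gene. The lists were drawn up with earlier results of these data known, so their counts are descriptive and no independent test. Their counts stand against the shares over all probe sets: 16.0% higher and 19.3% lower in control cells from 0 to 48 h, 10.2% and 11.9% with TSA over the mean of times, and 7.49% and 5.09% with Sir2 over both times. Counts of 1 in a list of 4 to 10 genes are near these shares, and nothing is read from them. Of the 3 tested Id genes, whose products keep MyoD from its E protein partners, all 3 fell in control cells from 0 to 48 h, with a median log2 change of -3.01 against 0.01 over all probe sets. With TSA 2 of 3 were higher over the mean of times (median 0.63, all probe sets -0.03). Id2 read 4434 to 5428 at 0 h, 1058 to 1128 at 12 h and 65.8 to 133 at 48 h in control cells, and 6228 to 6491, 4034 to 4328 and 831 to 967 with TSA, without overlap at these times. At 0 h its difference did not pass (0.36 ± 0.25, adjusted p = 0.388). Its log2 difference was 1.38 ± 0.25 at 4 h (adjusted p = 0.00325), 1.81 ± 0.25 at 12 h (0.00124), 2.76 ± 0.25 at 24 h (4.61e-05) and 2.14 ± 0.25 at 48 h (9.38e-05). Id1 passed at 0 h only, at 1.13 ± 0.25 (adjusted p = 0.00687). With Sir2 Id1 and Id2 were higher over both times, by 0.34 ± 0.10 (adjusted p = 0.0372) and 0.46 ± 0.14 (0.0479), and which of these calls held varied with the array left out, from 0 to 2 of them.

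Of the Mef2 factors, which bind beside MyoD at muscle genes, 3 of 4 rose in control cells by 48 h (Mef2a by 1.57 ± 0.16, Mef2c by 1.56 ± 0.33, Mef2d by 1.17 ± 0.16; adjusted p = 7.39e-06 to 0.00248). With TSA 1 of 4 was higher over the mean of times (Mef2a, 0.30 ± 0.07, adjusted p = 0.00819). With Sir2 2 of 4 were lower over both times, Mef2a by -0.54 ± 0.09 (adjusted p = 0.00178) and Mef2c by -0.72 ± 0.22 (0.0489), and 1 or 2 passed when single arrays were left out. Of the 3 E proteins, Tcf4 was higher with TSA over the mean of times (0.58 ± 0.10, adjusted p = 0.00128), Tcf12 was lower (-0.22 ± 0.05, 0.0106), and Tcf3 did not pass. Of 10 tested repressors 3 were higher with TSA over the mean of times and 1 lower: Bhlhe40 (0.91 ± 0.07), Snai1 (0.48 ± 0.14) and Zeb1 (0.31 ± 0.07) against Snai2 (-0.52 ± 0.08). With Sir2 Snai2 and Rbpj were higher and Zeb1 and Msc lower, of 10 tested. Of 8 tested upstream factors 1 was lower with TSA (Pknox1), and none of 6 passed with Sir2 in limma, with Tead4 lowest in p (adjusted p = 0.0821). Of 8 tested coactivators 1 passed with TSA (Smarcb1, lower), and of 8 corepressors 3 did (Hdac1 and Ezh2 higher, Hdac7 lower). With Sir2 none of 10 coactivators and 1 of 9 corepressors, Sirt1 itself, did. Of the tested bHLH factors known from other lineages 2 of 5 were higher and 1 lower with TSA, and 1 of 4 was lower with Sir2.

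The listed genes that the family is known to activate, mostly structural and metabolic, were more often lower than higher with TSA at 24 h, and the reverse at 48 h. Of 44 listed symbols 40 were on the array, 38 were tested with TSA and 39 with Sir2. The list also holds the regulators Mef2c, Cdkn1a, Rb1 and Musk, and its symbols Tmem8c and Mymk name the same gene. From 0 to 48 h 32 of 38 rose in control cells and none fell (median log2 change 2.18), and 35 of 38 rose in TSA cells (median 3.34), against 16.0% higher of all probe sets in control and 12.1% higher and 14.2% lower in TSA cells. The filter used the mean over all arrays of the arm, so a gene near 0 at 0 h could be tested because of its later arrays. Myl1, for example, had a mean of 6.93 in control cells at 0 h and 24639 at 48 h. These counts of rising genes are therefore partly set by the filter. With TSA 2 were higher and 4 lower at 0 h (median -0.02; 7.90% and 10% of all probe sets), and 2 and 2 at 4 h (median -0.02; 5.61% and 5.74%). At 12 h 1 was higher and 4 lower (median -0.12; 2.56% and 1.52%). At 24 h 2 were higher and 12 lower (median -0.58; 2.67% and 3.27%), and at 48 h 18 were higher and none lower (median 0.69; 10.5% and 9.10%). The median over all probe sets lay between -0.04 and 0.00 at these times. Values below 0 had been set to 0, which left Cox6a2 and Pygm without any difference at 0, 4 and 12 h, and Tnnc1 at 4 h. A list median near 0 before 24 h is therefore limited by low signal.

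Embryonic myosin heavy chain, Myh3, was lower with TSA by -1.46 ± 0.14 at 24 h (adjusted p = 4.87e-05), at 427 to 540 against 1562 to 1572, and higher by 1.26 ± 0.14 at 48 h (5.2e-05), at 18066 to 22464 against 7985 to 8661. Muscle creatine kinase, Ckm, was higher by 2.21 ± 0.18 at 48 h (adjusted p = 4.99e-06), at 2325 to 2394 against 346 to 468. Without 1 array of the groups compared, 1 to 3 genes of the list were lower at 12 h, 9 or 10 lower at 24 h and 11 to 14 higher at 48 h, the fewest without TSA 48 h replicate 2. At 12 h the count fell to 2 without TSA 12 h replicate 1 or 2 and to 1 without control 12 h replicate 2. A fit of only the arrays compared called none at 12 h, 1 at 24 h and none at 48 h.

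**Figure D4:**
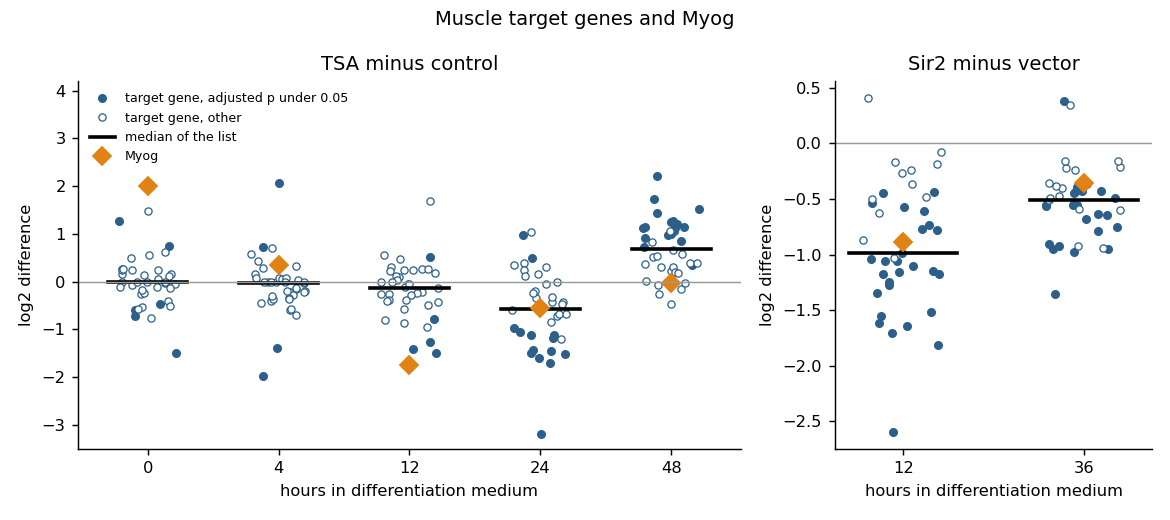
Log2 difference of the muscle target genes tested (blue points, filled where the adjusted p was under 0.05), their median (black bar) and Myog (orange diamond), for TSA minus control on the left and Sir2 minus vector on the right, at each time in hours. The median lies near 0 up to 12 h of TSA, at -0.58 at 24 h and 0.69 at 48 h, and below 0 at both times of Sir2. Changes of dim genes are compressed by the pseudocount, and points are spread sideways only for legibility.

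With Sir2 27 of 39 target genes were lower at 12 h and none higher (median -0.99, all probe sets 0.02), against 2.78% lower of all probe sets. At 36 h 21 were lower and 1 higher (median -0.51, all -0.02; 3.22% of all lower), and over both times 29 were lower and none higher (median -0.71, all -0.01; 5.09% of all lower). In vector cells 35 of 39 rose from 12 to 36 h and 1 fell (median 2.0, against 12.4% and 19.7% of all). In Sir2 cells 35 also rose over that interval and none fell (28.5% of all probe sets passed). Here too the filter used the mean over all arrays of the arm, so these counts of rising genes are partly set by it. The change from 12 to 36 h was more positive in Sir2 than in vector cells for 9 genes that passed, and less for 1 (1.76% of all passed). Without single arrays the 9 became 5 to 9. Phosphoglycerate mutase of muscle, Pgam2, was lower by -2.60 ± 0.11 at 12 h (adjusted p = 1.07e-07), at 3.92 to 4.60 against 68.3 to 72.0, and skeletal actin, Acta1, by -1.64 ± 0.10 (4.33e-06), at 473 to 521 against 1486 to 1642. The Sir2 readings of Pgam2 lay under the added constant of 8.82, near the floor, where the constant compresses both the difference and the spread. At 36 h the adult myosin Myh1 was lower by -1.35 ± 0.16 (adjusted p = 0.000307) and Myh3 by -0.98 ± 0.10 (0.000156). The count of lower genes at 36 h was 12 without vector 36 h replicate 2 or 3 or Sir2 36 h replicate 1 or 2, 14 without vector replicate 1 and 18 without Sir2 replicate 3. In RNA of whole cultures, fewer differentiated cells and less of these RNAs per cell cannot be told apart, for the members as for their targets.

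The genes whose log2 level ran most like that of Myog over the 20 arrays of the TSA arm were contractile genes, Myl1 (Pearson r = 0.958), Acta1 (0.956), Actc1 (0.946), Tnnc1 (0.941) and Tnni1 (0.933). Those most like Myod1 were Nisch (0.966), Zeb1 (0.954), Cd82 (0.953), Cavin2 (0.931) and St3gal5 (0.911), and those most like Myf5 were Cdk5 (0.875), Dpp7 (0.874), Pqlc3 (0.872), Aplp2 (0.869) and Cmbl (0.864). Among the members Myod1 and Myog had r = 0.810, Myf5 and Myod1 -0.22, and Myf5 and Myog -0.40. Cd82 in control cells went from 3221 ± 224 (SD, n = 2) at 0 h to 14803 ± 1500 at 48 h, and with TSA was already at 7949 ± 215 at 12 h and reached 12483 ± 922 at 48 h. Dpp7, a lysosomal peptidase, stood at 4194 ± 422 with TSA at 0 h against 898 ± 50.6 in control.

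Over the 12 arrays of the Sir2 arm, Myog was closest to Akt2 (0.966), Sh3glb1 (0.966), Dio2 (0.965), Igf2 (0.963) and Tnnt1 (0.963). Myod1 was closest to Tubb6 (0.971), Spsb1 (0.969), Hspb8 (0.963), Ctrb1 (0.961) and Fto (0.960). Myf5 was closest to Cpe (0.950), Septin10 (0.938), Iqgap1 (0.934), Gdi2 (0.933) and Plcb3 (0.917). Myod1 and Myog had r = 0.903, Myf5 and Myod1 -0.66, and Myf5 and Myog -0.57. These correlations describe arrays that share time and treatment, and they carry no test. Spsb1 shows the order of groups that Myod1 had, at 45.0 ± 1.10 (SD, n = 3) in Sir2 cells and 121 ± 2.15 in vector cells at 12 h, and 131 ± 10.7 and 229 ± 17.5 at 36 h. Cpe was lowest in vector cells at 36 h, as Myf5 was, at 162 ± 28.1 against 446 ± 55.7 in Sir2 cells.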

How the data were processed

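RNA of 32 samples was measured on 1 Affymetrix array design. The deposited values are intensities on a linear scale, 1 per probe set and array. Per the submitters' processing notes those of the Sir2 arm were made with MAS5, version not stated. For the TSA arm no tool is named in the sources used here, and its deposited intensities include values below 0. Each array had been scaled within its arm, as the values show.

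Of 12488 probe sets 66 controls were left out. Probe sets were named through the platform annotation, with symbols updated by Entrez identifier: 10833 had 1 gene, 396 several and 1193 none. Negative intensities became 0, and a pseudocount was added before log2, the 40th percentile of the values of the TSA arm or the 20th of those of the Sir2 arm. Those 7453 in each arm whose mean reached the 40th percentile of all means were tested. Each arm was fitted alone with limma 3.58.1 in R 4.3.3 (lmFit, eBayes, 1 mean per group, 10 and 8 residual degrees of freedom), with Benjamini-Hochberg adjustment within a comparison. The step was also run on simulated data with known changes. The share of small changes it recovered is not reported here, so that run is no support for the smaller differences above. The number of arrays limits the precision.

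The genes and lists were chosen with earlier results of these data known. Named genes are the members, the 5 genes of highest correlation with each, and, from each list, at most 4 genes with the smallest p (8 for the target genes), of which not all are printed. A list takes the brightest tested probe set of each gene. Other settings were quantile normalization, centring each array on its median, halved and doubled pseudocounts, dropping the filter or moving it to the 60th percentile, limma with trend and robust variance, a replicate block, a covariate for the suffix b of some titles, a fit restricted to the groups compared, and leaving out each array. The differences between neighbouring times' effects and the MEF2 core were added after seeing the data. Promoter windows came from RefSeq (GRCm38.p6). Figures were drawn with matplotlib 3.10.9 under Python 3.11.15.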

Additional observations from a re-analysis of the deposited data

Results flagged for a closer look

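The effect of TSA on 3 members differed between the 5 times by limma's F test of the interaction, which is why these results stand here. For Myf5 (adjusted p = 0.00361) the log2 difference went from 0.97 at 0 h to -0.53 at 24 h and 0.18 at 48 h. The values of 24 and 48 h did not pass by themselves in limma (adjusted p = 0.109 and 0.518). For Myod1 (adjusted p = 0.00156) it went from 0.81 at 4 h to -0.34 at 48 h, and the call at 48 h was lost under 4 of the other settings. For Myog (adjusted p = 0.00782) it went from 2.0 at 0 h to -1.75 at 12 h and -0.02 at 48 h. The call at 12 h was lost under 6 of the other settings. Of all probe sets 22.2% passed this test.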

How the results depend on the processing

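Whether a member passed depended most on leaving out an array and on how many groups shared the variance. In the TSA arm leaving out 1 array leaves 1 in its group, so lost replication and an unusual array cannot be told apart. With only the arrays compared in the fit, values stayed and these calls were lost: TSA against control for Myog at 0 h (2.0, adjusted p = 0.0593), Myf5 and Myod1 at 4 h (0.92, 0.0769; 0.81, 0.0717), Myod1 and Myog at 12 h (0.50, 0.169; -1.75, 0.0940) and Myod1 at 48 h (-0.34, 0.388), Myf5 in control cells from 0 to 48 h (-0.56, 0.127), and Myod1 and Myog with Sir2 at 12 h (-0.52, 0.0617; -0.88, 0.107). Of the steps, that fit also lost Myog (2.01, 0.225) from 4 to 12 h, Myf5 (1.04, 0.124) and Myod1 (0.66, 0.116) from 12 to 24 h and Myod1 (0.71, 0.148) and Myf5 (-0.88, 0.106) from 24 to 48 h in control cells, and Myf5 from 4 to 12 h in TSA cells (-0.96, 0.128). It lost the treatment differences of Myf5 from 12 to 24 h (-1.11, 0.231) and Myod1 from 24 to 48 h (-0.55, 0.290). The first of these was also lost with the halved pseudocount (0.0552), no filter (0.0568) and the suffix b covariate (0.0561), the second by quantile normalization (0.0514), and Myog from 4 to 12 h with the halved pseudocount (0.0633) and no filter (0.0521). Myog from 12 to 24 h in control cells was lost with the halved pseudocount (0.0530). Calls gained were Myog from 24 to 48 h in control cells under 4 settings (lowest 0.0124), Myod1 from 12 to 24 h in TSA cells under 3 (0.0205 to 0.0384), the treatment difference of Myod1 from 0 to 4 h under 3 (0.0154 to 0.0335), and in control cells from 4 to 12 h Myf5 (0.0494) and Myod1 (0.0443) under 1 each. Myog at 12 h of TSA was also lost by quantile normalization (-1.70, 0.0512), the halved pseudocount (-1.86, 0.104), no filter (-1.75, 0.0819) and the suffix b covariate (-1.75, 0.0529). Myod1 at 48 h was lost by quantile normalization (-0.30, 0.0651) and median centring (-0.31, 0.0509). Myog with Sir2 at 12 h was lost without the filter (-0.88, 0.0645), and Myod1 with Sir2 at 36 h passed with trend and robust variance (-0.33, 0.0339). Same-numbered arrays did not deviate together at every time (correlations -0.0997 to 0.228 and -0.314 to 0.116), so the numbers were not taken as pairs. In the TSA arm, with 2 arrays per group, both arrays of a time share 1 correlation, and its sign alone sets whether both match their own number. That correlation was positive at 12 h (0.172) and 24 h (0.228) and negative at the other times. In the Sir2 arm each array matched its own number best at 36 h (0.050 to 0.116). The replicate block ended the calls of Myog at 12 h (-1.75, 0.0665) and Myod1 at 48 h (-0.34, 0.0660) of TSA, of Myog from 4 to 12 h (0.0531) and 12 to 24 h (0.0928) in control cells, and of both treatment differences (Myf5 0.0804, Myod1 0.0717). Signs turned for values that had not passed: Myod1 in control cells from 0 to 12 h by quantile normalization (-0.0067), Myog with TSA at 48 h by median centring (0.0028) and over the mean of times with the doubled pseudocount (-0.082). Leaving out single arrays gave these ranges. For TSA against control they were 1.39 to 2.61 (Myog, 0 h), -0.42 to 1.11 (Myog, 4 h), 0.34 to 0.81 (Myf5, 12 h), 0.48 to 0.53 (Myod1, 12 h), -1.88 to -1.63 (Myog, 12 h), -0.48 to -0.19 (Myod1, 48 h), -0.12 to 0.080 (Myog, 48 h) and -0.15 to 0.16 (Myog, mean). For Sir2 against vector at 12 h they were -0.55 to -0.46 (Myod1) and -1.15 to -0.74 (Myog). In control cells they were -0.32 to 0.11 (Myf5, 0 to 4 h), -0.040 to 0.051 (Myod1, 0 to 12 h) and -0.78 to -0.35 (Myf5, 0 to 48 h). In TSA cells they were -0.50 to 0.11 (Myog, 0 to 4 h), -0.39 to 0.22 (Myog, 4 to 12 h) and -0.19 to 0.058 (Myf5, 12 to 24 h), and the change of Myf5 from 0 to 4 h differed from control by -0.27 to 0.17. From 12 to 36 h they were 0.34 to 0.47 for Myod1 in vector cells and -0.098 to 0.12 for Myf5 in Sir2 cells. Fewer probe sets also passed from 0 to 4 h in control cells, whichever array of the groups compared was left out. The same was seen with Sir2, at 215 to 331 in place of 414 at 12 h and 422 to 498 in place of 690 at 36 h. Causes were not tested. Probe sets near the background, such as Myf6, are limited by their low signal.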
